A study of Saccharomyces cerevisiae with 8 samples.

Results

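The mitochondrial protein import machinery was examined as 33 genes, all of which had a row among the 5774 genes of the normalized count table. The genes were chosen by name, by a rule that used no measured value although earlier results of these data were known, and were sorted into 8 groups by the complex that their products form or the step that they serve. These groups were the TOM complex (8 genes), the SAM complex (3), the MIA pathway (2), the small TIM chaperones (5), the TIM22 complex (3), the TIM23 complex (4), the import motor or PAM (4) and the peptidases that process imported proteins (4). The data came from wild type (WT) *Saccharomyces cerevisiae* of the prototrophic CEN.PK background and from *pbp1Δ* cells, in which *PBP1*, the yeast counterpart of human ataxin-2, was deleted by insertion of a PCR cassette. Each genotype was collected in log phase in YPD, a glucose medium, and 3 h after a switch from YPD to YPL, a lactate medium in which growth requires respiration. The 4 groups held 2 biological replicates each, so that 8 libraries of poly-A RNA were compared. The comparisons asked how the loss of Pbp1 alters transcripts in each medium and how each genotype responds to the switch.

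Nearly all mitochondrial proteins are made in the cytosol and must be imported. Precursors are bound by the receptors of the TOM complex and cross the outer membrane through its channel, after which the SAM complex inserts β-barrel proteins, the small TIM chaperones and the TIM22 complex deliver carrier proteins to the inner membrane, the MIA pathway folds cysteine-rich proteins of the intermembrane space, and the TIM23 complex with its motor brings presequence proteins into the matrix, where peptidases remove the presequence. Many mRNAs for mitochondrial proteins of yeast are bound by Puf3, an RNA-binding protein that reads a short element in the 3′ untranslated region.

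Reads on the listed genes numbered 33651287 to 39476235 per library, and the least covered member still had 408 reads in its lowest library. Normalized counts, which are reads divided by one factor per library, were used throughout. *PBP1* itself, on chromosome VII, had normalized counts of 12686 and 11943 in WT cells in YPD and 11112 and 11202 in YPL, and it had 0, 0, 0 and 0.93 in the *pbp1Δ* libraries. The genotypes also differed in mating type markers. The summed normalized counts of 7 **a**-specific genes ranged from 14330 to 86076 in WT libraries and from 1574 to 2197 in *pbp1Δ* libraries, whereas those of 4 α-specific genes ranged from 1680 to 2215 and from 41797 to 160790. Loss of *PBP1* and the difference in mating type therefore cannot be told apart in any comparison of genotypes below. The standard deviation of the log2 difference between replicates was wider over all genes than over the import genes. For all genes and for the members respectively, it was 0.58 and 0.17 in WT in YPD and 0.22 and 0.09 in WT in YPL. In *pbp1Δ* cells it was 0.53 and 0.18 in YPD and 0.31 and 0.20 in YPL. The tested genes had means of at least 10, whereas no member value was below 455. The standard deviation also leaves out a shift shared by the members. Their median difference, replicate 1 minus replicate 2, was -0.08, -0.07, -0.14 and -0.08 in the same order of groups. Over all genes the median difference was -0.02, -0.005, -0.04 and -0.008.

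Import transcripts spanned a wide range of levels, and those for the small subunits of the TOM complex stood near the top. Levels of different genes were compared as normalized counts per kb of coding sequence, a scale on which reads from untranslated regions weigh more in short genes such as *TOM5*, with 153 nt of coding sequence. In WT cells in YPL, *TOM5*, which encodes a small subunit that passes precursors to the TOM channel, had 83396 ± 1544 per kb (SD, n = 2), and *TIM10*, a chaperone of the intermembrane space, had 60536 ± 1111. Next came *TOM6* with 39886 ± 1233 and *TOM7* with 29059 ± 1443, both for small subunits that tune the assembly of the TOM complex. These genes lay at or above the 95.2 percentile of all genes, whose median was 2088 per kb. *TOM22*, *TIM17* and *TIM23* followed *MIA40* (26053 ± 2083) at 23361 ± 1147, 22896 ± 402 and 22714 ± 4091 per kb, and these 3 levels did not differ beyond their spread.

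The lower end of the order was held by genes of the SAM and TIM22 complexes. *SAM50*, the channel that inserts β-barrel proteins, had 2177 ± 3.9 per kb in WT cells in YPL, which was the lowest of the 33 and lay at the 51.4 percentile of all genes. *TIM18* (2441 ± 214 per kb) and *SAM37* (2442 ± 188 per kb) were next and did not differ from each other. The member that gained the most places in WT cells was *MIA40*, whose product is the oxidoreductase that traps cysteine-rich proteins in the intermembrane space. It ranked 15 of 33 in WT cells in YPD and 5 of 33 in YPL, but 16 and 13 in *pbp1Δ* cells.

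**Figure D1:**
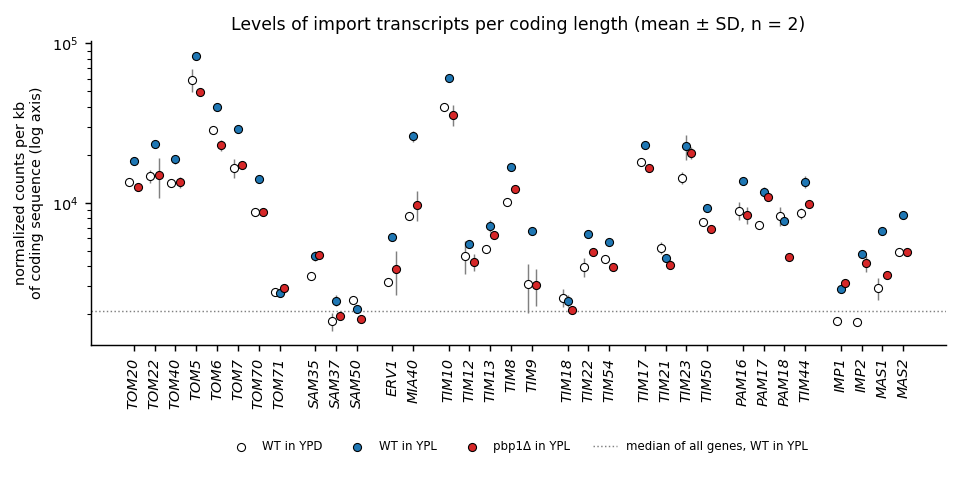
Normalized counts per kb of coding sequence (log axis) of the 33 import genes, by complex from TOM at the left to the peptidases at the right, as mean ± SD of 2 libraries for WT in YPD (white), WT in YPL (blue) and *pbp1Δ* in YPL (red). The dotted line is the median of all genes in WT in YPL, 2088 per kb; *TOM5* and *TIM10* lie highest, and the blue point of *MIA40* stands apart from its other points.

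Of the 33 members, 20 (60.6%) held the letters TGTANATA, where N is any base, on the gene strand within 200 nt after the stop codon. This is the core of the element that Puf3 is known to read, and the same letters occurred in that window in 834 of 5753 genes (14.5%). When a C was also required 1 or 2 bases before the motif, the counts were 17 members and 6.01% of all genes, and the same letters in reversed order (ATANATGT) were found in 7 members (21.2%) and 9.94% of all genes. The element was present in both genes of the MIA pathway, all 5 small TIM chaperones and all 3 genes of the TIM22 complex. It was also found in 5 TOM, 2 TIM23 and 3 motor genes, and in no gene of the SAM complex and no peptidase. The sequences below show the elements of the 3 genes called in YPL that carry one (*MIA40*, *TIM10* and *TOM6*) and of their partners *ERV1* and *TIM9*, followed by those of *PAM17* and *TIM23*, whose log2 fold changes between genotypes in YPL were the closest to 0 among members with an element. They were read from the R64 reference genome of strain S288C, not from the strain used, and run 5′ to 3′ on the gene strand with the element in capitals.
MIA40: aggatgatacaTGTAAATAcagtaatatta
ERV1: acagattctcgTGTATATAacactccaatc
TIM9: catttttagcaTGTAAATAtaaagagaaac
TIM10: gattcatatccTGTATATAcaagtaacatt
TOM6: tttcacttaccTGTATATAtattggttttt
TOM6, further from the stop codon: agagttagcagTGTATATAatggaaaaaaa
PAM17: ttctcagactcTGTATATAtacatatatga
TIM23: ctgatggcgctTGTATATAgcatttgaaaa
In R64 coordinates the elements lie at chrXI:77088-77095 (plus strand) for *MIA40*, chrVII:544269-544276 (plus) for *ERV1*, chrV:117532-117539 (plus) for *TIM9* and chrVIII:115509-115516 (minus) for *TIM10*. Those of *TOM6* lie at chrXV:414077-414084 and chrXV:414160-414167 (both plus), that of *PAM17* at chrXI:565257-565264 (minus) and that of *TIM23* at chrXIV:663661-663668 (plus). They begin between 35 nt (*PAM17*) and 123 nt (the further element of *TOM6*) after the stop codon. A match of letters is a description of the sequence and does not show that Puf3 bound there.

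In YPD, no import gene passed the test between genotypes, and most members had values slightly below those of WT. Differences were tested with limma on log2 values over 5759 genes, and a gene was called when its Benjamini-Hochberg adjusted p was below 0.05 and its log2 fold change exceeded 0.58 in size. By this rule 0 of 33 members were called in YPD, against 0.868% of all genes called lower and 0.104% called higher. The log2 fold change of *pbp1Δ* against WT was below 0 in 28 members and ranged from -0.63 (*MAS1*) to 0.15 (*ERV1*), with a median of -0.14, compared with -0.02 over all genes. An unadjusted p below 0.05 was reached by 10 members, all lower (6.7% of all genes were lower with such a p), and limma with voom weights on reads also called 0. A replicate block within each medium, which takes equally numbered replicates as belonging together, called 1 member lower (3.33% of all genes). Both *pbp1Δ* libraries lay below both WT libraries in 16 members (17.8% of all genes) and above them in 3 (13.7%).

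The lowest adjusted p and the log2 fold change furthest from 0 in YPD belonged to the subunits of the matrix processing peptidase, the enzyme that cuts off presequences. *MAS2*, with the lowest p, had normalized counts of 7028 and 7244 in WT cells and 4821 and 5214 in *pbp1Δ* cells, with a log2 fold change of -0.51 ± 0.09 (SE) and an adjusted p of 0.070 by limma. Its partner *MAS1*, with the change furthest from 0, had 3610 and 4531 in WT cells and 2270 and 3011 in *pbp1Δ* cells, with -0.63 ± 0.17 and an adjusted p of 0.23, which was above those of *TOM40* (0.18) and *TOM20* (0.199). Neither MAS gene had a *pbp1Δ* library within the WT range. By complex, the median log2 fold change in YPD was -0.36 for the motor, -0.23 for the peptidases, -0.21 for TIM23, -0.16 for TOM, -0.15 for MIA, -0.14 for TIM22, -0.08 for the small TIM chaperones and -0.02 for SAM. These medians depended on single libraries: without *pbp1Δ* replicate 1 in YPD that of the 33 members was -0.065 and that of TOM 0.021, and without *pbp1Δ* replicate 2 they were -0.27 and -0.34.

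After the switch to YPL, 6 of the 33 import genes were lower in *pbp1Δ* than in WT cells and none was higher. The 6 genes were *MIA40*, *MAS1*, *TOM6*, *MAS2*, *TIM10* and *TOM70*, which belong to the MIA pathway, the processing peptidase, the TOM complex and the small TIM chaperones. Over all genes 4.17% were called lower and 0.521% higher. Since RNA was taken from whole cultures, fewer cells of a kind and less RNA per cell cannot be told apart. The median log2 fold change over the members was -0.47, beside -0.01 over all genes, and 30 members had a value below 0. Both *pbp1Δ* libraries lay below both WT libraries in 29 members (30.1% of all genes) and above them in 2 (27.5%), the exceptions being *TOM71* and *IMP1*, while *TIM23* and *SAM35* overlapped. A further 5 members, *TOM20*, *TOM40*, *TIM8*, *TIM17* and *TIM54*, had an adjusted p below 0.05 with a smaller fold change, so that 11 members met the p threshold alone (4.55% of all genes did so lower). The calls were sensitive to single libraries: 2 members were called without WT replicate 1 in YPL, 0 without WT replicate 2 and 2 without *pbp1Δ* replicate 1, settings in which 1.48%, 0.972% and 1.98% of all genes were called lower. No member changed sign among the 6, whose log2 fold changes ranged from -1.65 to -0.62 over all left-out libraries. Other settings called more members lower. A replicate block over both media called 12 (4.41% of all genes), and a block within each medium called 13 (6.96%). The labels do not say whether equally numbered replicates belong together. A fit on only the 4 YPL libraries called 13 (6.49%).

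**Figure D2:**
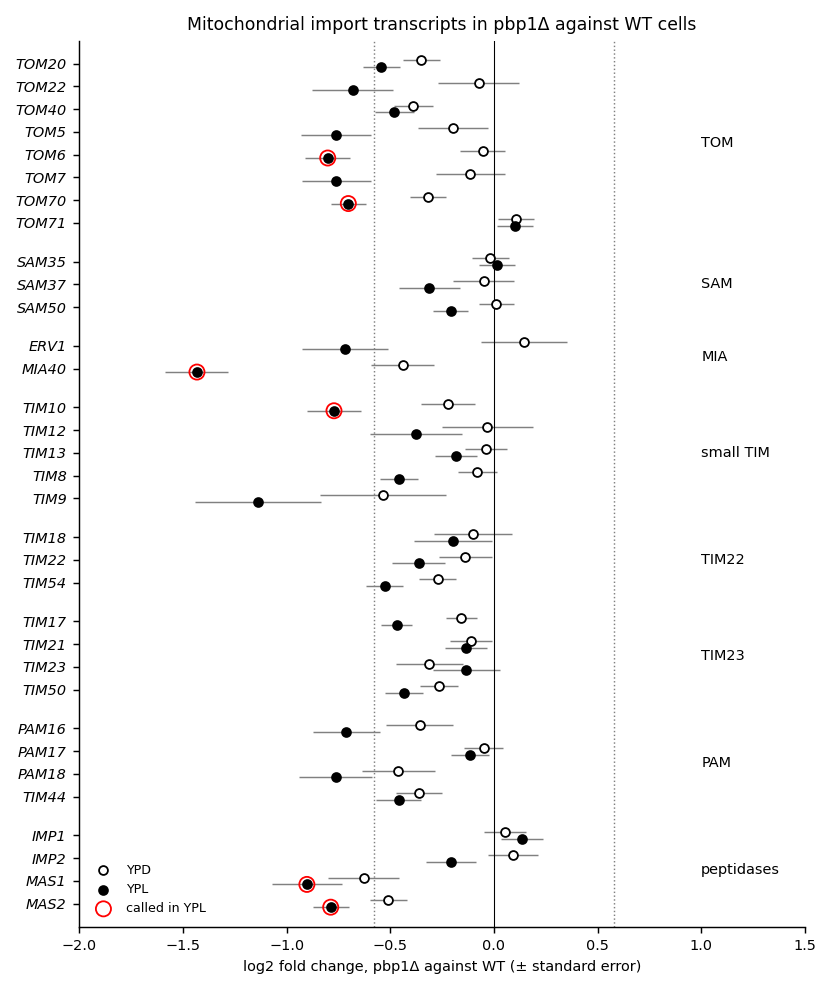
Log2 fold change of *pbp1Δ* against WT cells for each import gene in YPD (white) and YPL (black), with its standard error from the fit over 8 libraries and the complexes named at the right. Red rings mark the 6 genes called in YPL, dotted lines mark 0.58 in either direction, and the filled points of *MIA40* and *TIM9* lie furthest to the left.

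*MIA40* (YKL195W, chromosome XI, 75821 to 77032) showed the largest difference of the 33. Its normalized counts in YPL were 29792 and 33362 in WT cells and 10018 and 13607 in *pbp1Δ* cells, and in YPD they were 9697 and 10305 in WT and 7418 and 7310 in *pbp1Δ* cells. The *pbp1Δ* libraries in YPL thus stood near the WT libraries in YPD and far below those of WT in YPL. In YPL the log2 fold change was -1.43 ± 0.15 (95% interval -1.80 to -1.07, adjusted p of 0.0040 by limma), and the mean was 37.4% of WT. The call was lost when WT replicate 2 in YPL was left out (adjusted p of 0.057). *ERV1*, which encodes the sulfhydryl oxidase that reoxidizes Mia40, had 3408 and 3596 in WT cells and 1708 and 2652 in *pbp1Δ* cells in YPL. The difference of -0.72 ± 0.21 on the log2 scale did not pass the test (adjusted p of 0.13). The *pbp1Δ* replicates of *ERV1* differed widely from each other but both lay below WT.

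Within the TOM complex, the receptor Tom70 and the small subunit Tom6 were called in YPL. *TOM70* (YNL121C, chromosome XIV, 398684 to 400537), a receptor for carriers and other proteins without a cleaved presequence, had 25511 and 27057 in WT cells and 15738 and 16558 in *pbp1Δ* cells. The libraries did not overlap, and the log2 fold change was -0.70 ± 0.09 (adjusted p of 0.0061 by limma). *TOM6* (YOR045W, chromosome XV, 413852 to 414037) had 7581 and 7257 in WT and 4015 and 4505 in *pbp1Δ* cells, with -0.80 ± 0.11 (adjusted p of 0.0093). Both calls were lost without WT replicate 1, WT replicate 2 or *pbp1Δ* replicate 1 in YPL, with adjusted p up to 0.073 for *TOM70* and 0.096 for *TOM6*. The other small subunits had similar values that missed the threshold, -0.76 ± 0.17 for both *TOM5* (adjusted p of 0.062) and *TOM7* (0.057). The channel gene *TOM40* had -0.48 ± 0.09, and the receptor genes *TOM20* and *TOM22* had -0.54 ± 0.09 and -0.68 ± 0.19. *TOM71*, the paralog of *TOM70*, was the only member of the complex above 0, at 0.10 ± 0.09, with normalized counts of 5176 and 5233 in WT and 5837 and 5349 in *pbp1Δ* cells.

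Of the small TIM chaperones, which escort hydrophobic precursors across the intermembrane space, *TIM10* was called in YPL. *TIM10* (YHR005C-A, chromosome VIII, 115620 to 115901) had 16850 and 17293 in WT cells and 8989 and 11117 in *pbp1Δ* cells, and the libraries did not overlap. Its log2 fold change was -0.77 ± 0.13 (adjusted p of 0.022 by limma), and the call was lost without either WT replicate or without *pbp1Δ* replicate 1 in YPL (adjusted p up to 0.17). *TIM9*, whose product forms a hexamer with Tim10, had 1816 and 1699 in WT and 662 and 959 in *pbp1Δ* cells. Its log2 fold change of -1.14 was larger but had a standard error of 0.30 and an adjusted p of 0.11. *TIM8* had -0.46 ± 0.09, while its partner *TIM13* had -0.18 ± 0.10 and *TIM12*, which docks the chaperones at the TIM22 complex, had -0.38 ± 0.22.

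The matrix processing peptidase and the inner membrane peptidase gave different values in YPL. *MAS1* (YLR163C, chromosome XII, 491866 to 493254) had 8927 and 9499 in WT cells and 4718 and 5142 in *pbp1Δ* cells, with a log2 fold change of -0.90 ± 0.17 (adjusted p of 0.034 by limma). *MAS2* (YHR024C, chromosome VIII, 157744 to 159192) had 11743 and 12747 in WT and 7134 and 7040 in *pbp1Δ* cells, with -0.79 ± 0.09 (adjusted p of 0.0044). For both subunits the *pbp1Δ* libraries lay below both WT libraries. The *MAS1* call was lost without any of the 4 YPL libraries (adjusted p up to 0.23), and the *MAS2* call was lost only without WT replicate 2 (0.066). *IMP1* and *IMP2*, the catalytic subunits of the inner membrane peptidase, which acts on proteins of the intermembrane space, had 0.13 ± 0.10 and -0.21 ± 0.12.

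No gene of the SAM, TIM22, TIM23 or motor groups was called in YPL. In the TIM22 complex, which inserts carriers, the values were -0.53 ± 0.09 for *TIM54* (adjusted p of 0.023, below the fold threshold), -0.36 ± 0.13 for the channel gene *TIM22* and -0.20 ± 0.19 for *TIM18*. In the TIM23 complex they ran from -0.47 ± 0.07 for *TIM17* to -0.13 ± 0.16 for *TIM23*, the genes of its channel. In the motor, *PAM18* and *PAM16*, the J-protein and its J-like partner, had -0.76 ± 0.18 and -0.71 ± 0.16 with adjusted p of 0.069 and 0.066, whereas *PAM17* had -0.12 ± 0.09. The 3 SAM genes ranged from -0.31 (*SAM37*) to 0.02 (*SAM35*). By complex, the medians in YPL were -1.08 for MIA, -0.69 for TOM, -0.59 for the motor, -0.50 for the peptidases, -0.46 for the small TIM chaperones, -0.36 for TIM22, -0.29 for TIM23 and -0.21 for SAM.

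**Figure D3:**
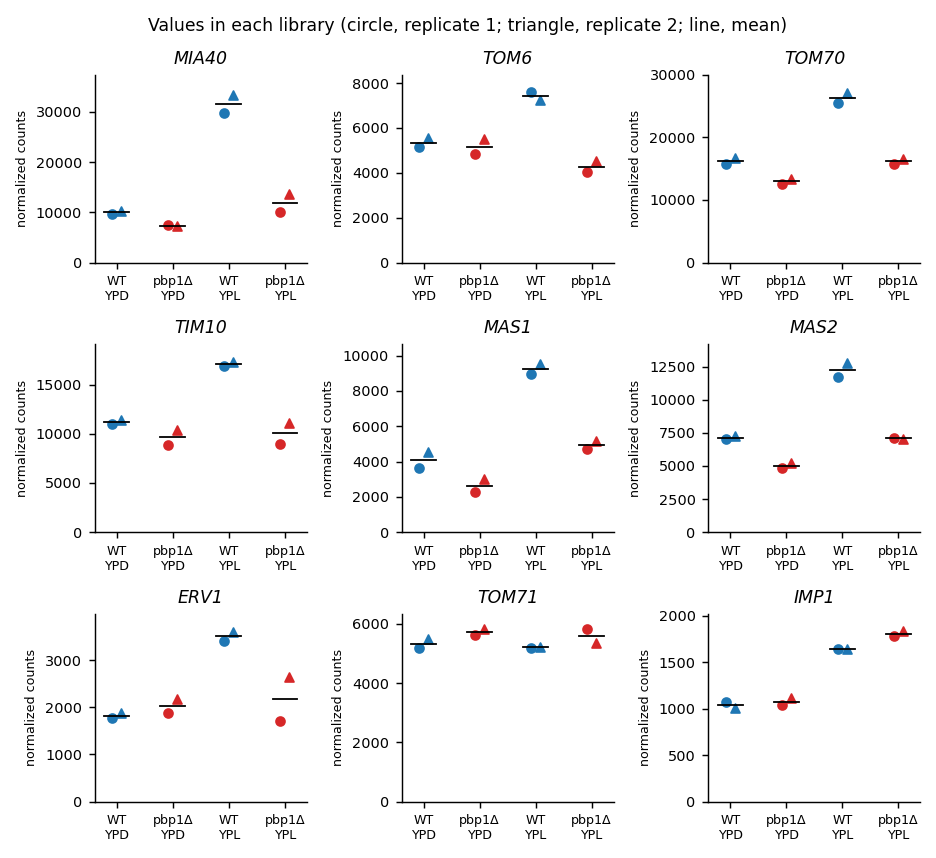
Normalized counts in each library (circles, replicate 1; triangles, replicate 2; lines, means) of the 6 import genes called in YPL and of *ERV1*, *TOM71* and *IMP1*, with WT in blue and *pbp1Δ* in red. For the 6 called genes the red YPL points lie below both blue YPL points, as for *MIA40* at 10018 and 13607 against 29792 and 33362, whereas the *TOM71* points stay between 5176 and 5844 in all 8 libraries.

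Because a ratio of transcripts within a library does not depend on how libraries are scaled, 8 pairs of partner or paralogous genes were compared as ratios of normalized counts. With 2 libraries against 2, the smallest p that an exact permutation test can give is 0.333, and no model was fitted to the ratios, which are given as a description. The *TOM70*/*TOM71* ratio was 3.04 and 3.03 in WT cells in YPD and 4.93 and 5.17 in YPL, but 2.23 and 2.29 in *pbp1Δ* cells in YPD and 2.696 and 3.10 in YPL. Thus the paralogs did not keep the same proportion, and WT and *pbp1Δ* libraries were separate in both media. The *MIA40*/*ERV1* ratio was 8.74 and 9.28 in WT cells in YPL, against 5.87 and 5.13 in *pbp1Δ* cells, and was likewise separate in both media. For *PAM16*/*PAM18*, by contrast, the YPL ratios of 1.52 and 1.64 in WT cells and 1.52 and 1.76 in *pbp1Δ* cells overlapped. Which gene of a pair was the numerator was arbitrary, so lower or higher has meaning only for a ratio as written. The pairs were chosen after their values were seen, and no share over other pairs of genes was computed. For single genes in YPL, libraries did not overlap in 30.1% (lower) and 27.5% (higher) of all genes. Of the 8 ratios in YPL as written, 6 were lower in *pbp1Δ* cells without overlap, 1 was higher and 1 overlapped. The higher ratio was *IMP1*/*IMP2*, at 0.660 and 0.620 in WT and 0.866 and 0.759 in *pbp1Δ* cells. In YPD, 4 of the 8 ratios overlapped between genotypes.

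**Figure D4:**
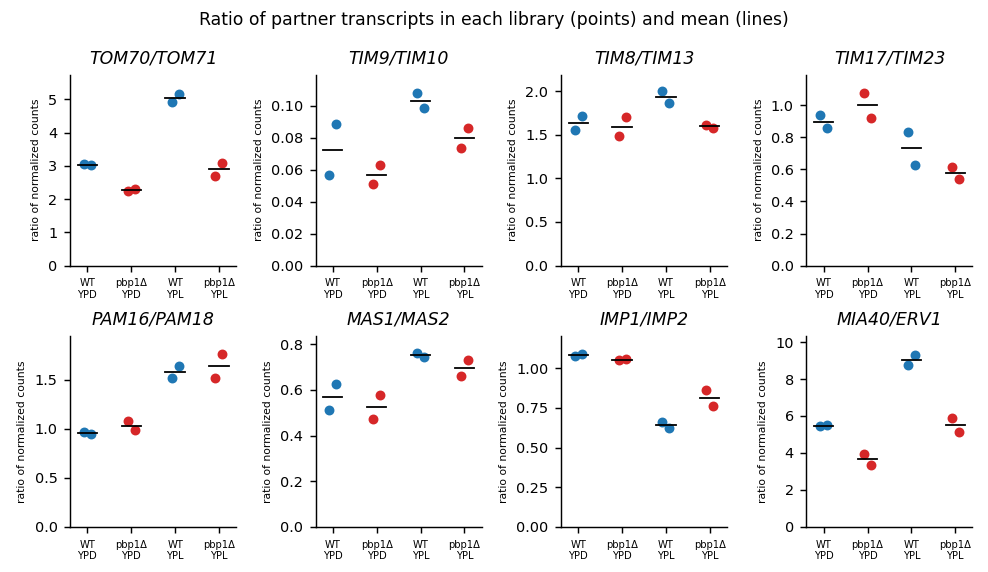
Ratio of normalized counts of 8 partner or paralog pairs in each library (points) with the mean of 2 libraries (lines), WT in blue and *pbp1Δ* in red, each axis starting at 0. The *TOM70*/*TOM71* ratio reaches 4.93 and 5.17 in WT in YPL and stays at or below 3.10 in *pbp1Δ*, while the *PAM16*/*PAM18* points of the genotypes overlap in YPL.

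In WT cells, the switch to YPL was accompanied by a rise of 17 of the 33 import genes, and none fell. Over all genes, 19.3% were called higher and 15.7% lower. The median log2 fold change of YPL against YPD was 0.60 over the members and 0.00 over all genes, and the YPL libraries lay above the YPD libraries in 27 members (38.5% of all genes) and below them in 2 (38.0%). All 4 peptidase genes, both MIA genes, 3 of 5 small TIM chaperones, 3 of 8 TOM genes, 3 of 4 motor genes and 1 gene each of TIM22 and TIM23 rose, while no SAM gene was called. The medians were 1.30 for MIA, 0.98 for the peptidases, 0.64 for the motor, 0.60 for the small TIM chaperones, 0.50 for TOM, 0.42 for SAM, 0.37 for TIM22 and 0.31 for TIM23. Centring each library on its median shifted the median of all genes by -0.13, and 8 members were then called higher, beside 16.3% of all genes called higher and 20.3% lower. Without WT replicate 1 in YPD 10 members were called, beside 21.2% of all genes, and without WT replicate 2 in YPL 10 were called, beside 14.3%.

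In the MIA pathway, *MIA40* rose most, by 1.66 ± 0.15 (adjusted p of 0.00028 by limma). Among the peptidases *IMP2* rose most, with 994 and 924 normalized counts in YPD, 2495 and 2647 in YPL and a log2 fold change of 1.42 ± 0.12 (adjusted p of 0.00020). *TIM9* rose from 622 and 1010 to 1816 and 1699, with 1.15 ± 0.30 (adjusted p of 0.022), although its YPD replicates lay far apart and the call was lost without WT replicate 1 in YPD or without either YPL replicate (adjusted p up to 0.10). In all 3 genes, each the largest rise of its complex, the YPL libraries lay above the YPD libraries.

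Rises in the remaining complexes were smaller. *TOM7* went from 2748 and 3335 to 5505 and 5131 (0.81 ± 0.17, adjusted p of 0.0079), and this call was lost without WT replicate 1 in YPL (0.054). *PAM17*, a motor subunit of the TIM23 complex, went from 4482 and 4154 to 6637 and 7299 (0.69 ± 0.09, adjusted p of 0.0014), and *TIM22* from 2249 and 2727 to 3962 and 3987 (0.68 ± 0.13, adjusted p of 0.0058). *TIM23* went from 9032 and 10208 to 13260 and 17131, with 0.65 ± 0.16 (adjusted p of 0.017). None of these 4 genes overlapped between media. The *TIM22* and *TIM23* calls were lost without WT replicate 1 in YPD, the *TIM23* call also without WT replicate 2 in YPL, and the *PAM17*, *TIM22* and *TIM23* calls after centring.

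In *pbp1Δ* cells, 6 of the 33 members were called higher on the switch and none lower. This was close to the share over all genes, of which 18.1% were called higher and 15.1% lower. After centring, 4 members were called higher, beside 14.6% of all genes. The 6 genes were *MIA40*, *PAM17*, *TIM23*, *MAS1*, *IMP1* and *IMP2*, each of which also rose in WT cells. The YPL libraries lay above the YPD libraries in 18 members (37.6% of all genes) and below them in 4 (35.9%). The median over the members was 0.24, and over all genes 0.01. The complex medians were 0.83 for the peptidases, 0.41 for the motor, 0.37 for MIA, 0.34 for the small TIM chaperones, 0.17 for SAM, 0.11 for TOM and TIM22, and 0.08 for TIM23. Without *pbp1Δ* replicate 1 in YPD the TOM median was -0.045 and the SAM median 0.041, and without *pbp1Δ* replicate 2 in YPL the MIA median was 0.10 and that of the members 0.15. No gene of the TOM, SAM or TIM22 complexes and no small TIM chaperone was called in *pbp1Δ* cells. *IMP2* rose by 1.12 ± 0.12, with 989 and 1054 normalized counts in YPD and 2055 and 2415 in YPL. *TIM23* rose by 0.83 ± 0.16, from 7077 and 8461 to 12883 and 14661, so that its YPL libraries lay far above those in YPD. *MIA40* rose by 0.66 ± 0.15 in *pbp1Δ* cells, a call that was lost without replicate 2 of either medium and after centring.

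**Figure D5:**
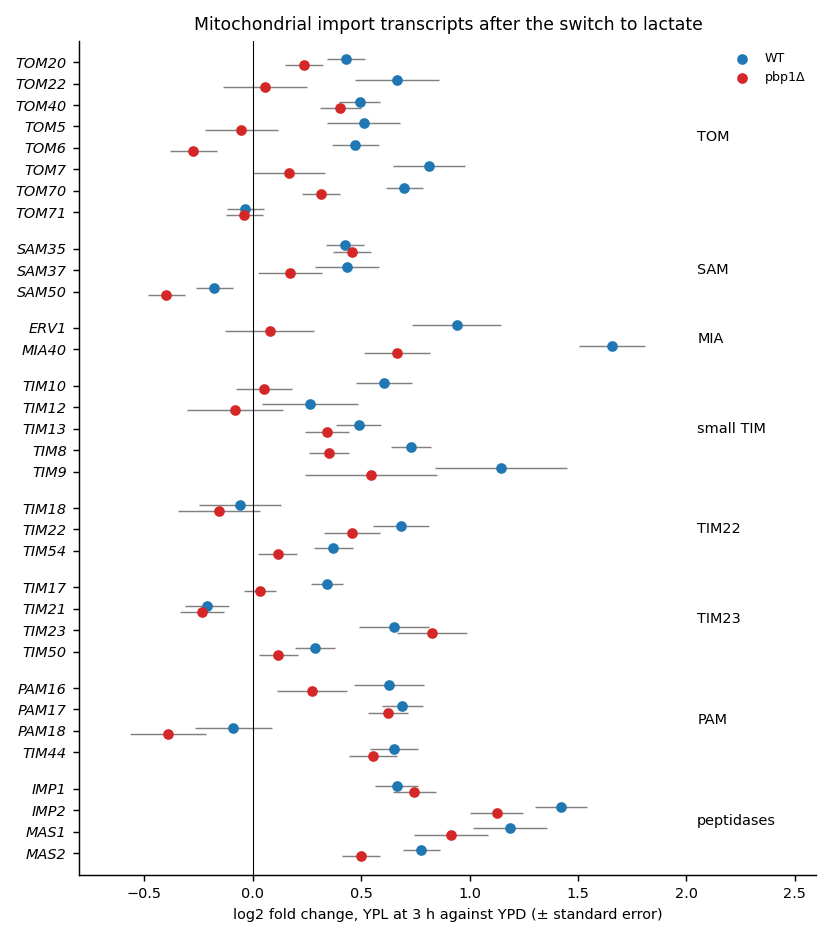
Log2 fold change of YPL at 3 h against YPD for each import gene in WT (blue) and *pbp1Δ* cells (red), with standard errors from the fit over 8 libraries. The blue points lie to the right of the red points for most TOM, MIA and small TIM genes, as for *MIA40* at 1.66 and 0.66, and the points of *PAM17*, *IMP1* and *SAM35* lie close together.

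Whether the switch acted differently in the genotypes was tested by the interaction, that is, the genotype difference in YPL minus that in YPD, called at an adjusted p below 0.05 alone. No member was called, and over all genes 0.0521% were called lower and 0.0174% higher. This result depended on the model. A replicate block within each medium, which takes equally numbered replicates as belonging together, called 7 members lower (3.49% of all genes). The labels do not say whether such replicates belong together. An unadjusted p below 0.05 was reached by 8 members, all negative (4.25% of all genes), 0 were called with voom weights, and the median over the members was -0.27 compared with 0.01 over all genes. *MIA40* had an interaction of -0.99 ± 0.21 (95% interval -1.51 to -0.48), an unadjusted p of 0.0030 by limma and an adjusted p of 0.44. *ERV1* had -0.86 ± 0.29 (adjusted p of 0.64) and *TOM6* -0.75 ± 0.15 (0.42). The other 5 were *TOM70*, *TOM7*, *TIM10*, *TIM8* and *TIM17*, with values from -0.65 to -0.31.

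*TOM6* was the only member whose YPL libraries lay above the YPD libraries in WT cells and below them in *pbp1Δ* cells. Its normalized counts went from 5132 and 5569 to 7581 and 7257 in WT cells and from 4818 and 5500 to 4015 and 4505 in *pbp1Δ* cells. The log2 fold changes were 0.47 ± 0.11 (adjusted p of 0.013, below the fold threshold) and -0.28 ± 0.11 (adjusted p of 0.081), and neither was called. At the other end, *TIM23* had a positive interaction of 0.18, *IMP1* of 0.08 and *SAM35* of 0.03, and none of these had an unadjusted p below 0.05.

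Called genes in YPL were found among members with the Puf3 element and among those without it. The median log2 fold change in YPL was -0.50 for the 20 members with the element, all of which had values below 0, and -0.31 for the 13 without it. The order of these medians depended on the window. At 100 nt the median without it was -0.48, and the 12 members with it did not have the lower median. At 300 nt the median without it was -0.21. Of the called genes, *MIA40*, *TOM6* and *TIM10* carried the element within 200 nt and *MAS1*, *MAS2* and *TOM70* did not. This split depended on the window: within 300 nt *MAS2* and *TOM70* also held the element, and *MAS1* still did not. Over all genes, 23.9% of the 834 with the element and 0.834% of the 4919 without it were called lower in YPL, and the median of the 834 was -0.22. When a C was also required 1 or 2 bases before the motif, 50% of 346 genes were called lower, with a median of -0.72. For the 17 members of that kind, 3 were called lower and the median was -0.54, so they were not lowered more than other such genes. Of the 20 members with the element, 3 were called, as were 3 of the 13 members without it. In YPD the medians were -0.18 with the element and -0.07 without it. Among members with an element, the values in YPL ranged from -1.43 for *MIA40* to -0.12 for *PAM17*.

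Other genes of import were described from a list of 14 that included chaperones, assembly factors and further peptidases. None of them was called in YPD, where their median log2 fold change was -0.07, and 3 were called lower in YPL, where the median was -0.35. For comparison with this list and those below, 4.17% of all tested genes passed as lower in YPL, with a median of -0.01. The YPD shares over all tested genes were 0.868% lower and 0.104% higher, with a median of -0.02. *SSC1*, the matrix Hsp70 that drives the import motor, had 120004 and 133001 normalized counts in WT cells and 75155 and 65817 in *pbp1Δ* cells in YPL (-0.85 ± 0.17, adjusted p of 0.045 by limma). *MGE1*, its nucleotide exchange factor, had 11798 and 12020 in WT and 6639 and 8633 in *pbp1Δ* cells (-0.65 ± 0.13, adjusted p of 0.043). *CYM1*, a protease that degrades cleaved presequences, had 11418 and 13332 in WT and 5786 and 5833 in *pbp1Δ* cells (-1.09 ± 0.18, adjusted p of 0.019). In each of these genes both *pbp1Δ* libraries lay below both WT libraries. Among 29 genes of metabolite carriers, which are clients of the small TIM chaperones and the TIM22 complex, 5 were called lower in YPL and the median was -0.13. For scale, 31 of 34 genes for proteins of the large mitochondrial ribosomal subunit were called lower in YPL, with a median of -1.19, beside 6 of 33 import genes and a median of -0.47.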

How the data were processed

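RNA was extracted from yeast cells with the MasterPure Yeast RNA kit, and poly-A libraries were sequenced on an Illumina platform. The authors trimmed reads with Trim Galore, aligned them to S288C with STAR 2.7.3a, kept uniquely mapped reads, counted them on R64 genes with featureCounts (Subread 1.6.3) and deposited normalized counts from DESeq2 for each library, a linear signal that is not scaled by gene length. Whether counting used strand was not given in the sources used here, but no member overlaps another annotated gene. Dividing each deposited value by the smallest step in its library gave whole reads for 100% of values within 0.01, from which the depths were taken.

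Values were tested as log2(value + 1) with limma 3.58.1 in R 4.3.3, in a linear model of the 4 groups with a trended variance, for 5759 genes, after those whose mean was below 10 were left out. Fold changes are on that scale. All 5774 identifiers matched the R64 annotation of RefSeq. The members and lists were chosen with earlier results of these data known. All members were accounted for. For members called between genotypes, values were given in every library of the comparison in which they were called. The same was done, per complex with a gene called on the switch in WT cells, for the called gene that rose most. *ERV1*, *TIM9*, *TOM71* and the pairs were added after their values were seen. Alternatives comprised other pseudocounts, filters, thresholds, centring, replicate blocks, left-out libraries, untrended variance, fits on the libraries compared and, chosen after seeing the data, voom weights on whole reads.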

Additional observations from a re-analysis of the deposited data

How the results depend on the processing

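No called value changed sign under any alternative that was run. Pseudocounts of 0.5 and 8, no filter, a mean of at least 100 and an untrended variance changed no call of a member, and voom weights on whole reads left 164 of 165 member values on the same side of the threshold, the other being *TOM7* in YPL (adjusted p of 0.046 by limma). The count model planned in case the values were whole counts (edgeR) was not run, and the values were not refitted with DESeq2 either. Fits on only the 4 libraries compared called 13 members lower in YPL (6.49% of all genes), and a threshold of 1 on the log2 scale left 1 member lower in YPL (2.43% of all genes), 4 higher on the switch in WT cells (12.3%) and 1 higher in *pbp1Δ* cells (10.7%). The labels do not say what a replicate number marks. Deviations of equally numbered replicates correlated at 0.85 between genotypes in YPD, 0.24 between genotypes in YPL, -0.22 between media in WT and -0.02 between media in *pbp1Δ* cells. A replicate block over both media called 12 members lower in YPL (4.41% of all genes), and a block within each medium called 1 in YPD (3.33%), 13 in YPL (6.96%) and 7 in the interaction (3.49%), all lower. With left-out libraries, where the lone replicate of a group was assumed to vary like the other groups, the counts ranged from 0 to 9 lower in YPL (0.972% to 4.31% of all genes), from 10 to 17 higher on the switch in WT cells (14.3% to 21.2%) and from 0 to 1 lower (12.1% to 16.1%) and 5 to 7 higher (14.9% to 19.2%) in *pbp1Δ* cells.

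Centring each library on its median gave 8 members higher on the switch in WT cells (16.3% of all genes). It changed the median log2 fold changes between genotypes to -0.067 for TIM22 and -0.14 for TIM23 in YPD, and to -0.63 for TOM and -0.30 for TIM22 in YPL. On the switch in WT cells the centred medians were 0.48 for the 33 members, 0.38 for TOM, 1.17 for MIA, 0.24 for TIM22, 0.19 for TIM23 and 0.86 for the peptidases, and in *pbp1Δ* cells 0.10 for the members, -0.020 for TIM22, -0.059 for TIM23 and 0.70 for the peptidases. Over left-out libraries the medians ranged, in YPD, from -0.28 to 0.0010 for TIM22, from -0.27 to -0.065 for the 33 members and for the small TIM chaperones, from -0.34 to 0.021 for TOM, from -0.017 to 0.013 for SAM and from -0.49 to -0.20 for the motor. They ranged from -0.73 to -0.63 for TOM and from -0.38 to -0.23 for TIM23 in YPL, from 0.46 to 0.61 for TOM on the switch in WT cells, and from -0.34 to -0.17 for the members in the interaction. On the switch in *pbp1Δ* cells they ranged from 0.15 to 0.34 for the members, -0.045 to 0.23 for TOM, 0.041 to 0.30 for SAM, 0.10 to 0.64 for MIA, 0.050 to 0.18 for TIM22, 0.035 to 0.12 for TIM23 and 0.70 to 0.96 for the peptidases. The Puf3 element was found in 12 members in a window of 100 nt (10.5% of all genes). The median in YPL of members without it was -0.48 at 100 nt and -0.21 at 300 nt. At 100 nt the members with the element did not have the lower median. The cause of these changes was not tested. With 2 libraries a group, a missed call does not show equal levels.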
